A study of Mus musculus with 38 samples.

Results

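LAP2B and lamin B1 (LMNB1) mark the same face of the nucleus, and their CUT&RUN profiles were compared here in naive wild-type (WT) mouse embryonic stem cells. The comparison uses 6 of the 38 samples of the series, 3 libraries with a LAP2B antibody and 3 with a lamin B1 antibody, chosen by their labels and not by any measured value. All 6 came from WT cells kept without serum or feeders in 2i + LIF medium, which holds embryonic stem cells in the naive state, and no allele or agent differed between the groups. The other samples are cells that lack the lamins (TKO), the lamin B receptor (LBRKO) or both (QKO), cells taken to epiblast-like cells (EpiLCs), and H3K9me3 and IGG libraries. Of these, only the 3 naive WT IGG libraries and the 6 LAP2B and LMNB1 libraries of WT EpiLCs were used, as background and for a second stage. The WT cells are 1 line, the littermate of the TKO line, and per the study's karyotyping a part of them had lost the Y chromosome, some of these also with trisomy 6 and 8. The labels call the 3 libraries of a group replicates without naming separate cultures, so p-values measure the spread between these libraries, which may be technical. The target protein, the antibody and its dilution change together between the groups and cannot be told apart. Per the study, the LAP2 antibody was raised to a stretch that lies partly in the sequence common to LAP2 alpha and LAP2B and partly in the B isoform alone. From staining of the inner nuclear membrane, a single immunoblot band of LAP2B size and transcript levels, the study concluded that it recognizes LAP2B preferentially. The IGG control was run beside LAP2B, and an IGG control run beside LMNB1 was not analysed here.

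LAP2B is an isoform of the Tmpo gene product, a LEM-domain protein that spans the inner nuclear membrane and binds lamins and chromatin. Lamin B1 is a farnesylated intermediate filament protein of the meshwork that lies under that membrane. Chromatin that touches this layer forms lamina-associated domains, which are AT-rich, poor in genes, mostly silent and rich in LINE-1 elements, while GC-rich and gene-dense chromatin lies inside. In CUT&RUN, protein A fused to micrococcal nuclease cuts DNA beside the bound antibody, so each protein reports the DNA within its reach.

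The tables hold spike-in-scaled values summed over the 1 kb bins that a gene touches, or a value for each transposable element (TE) copy. TE values were averaged over the copies of a family and were not divided by copy length. Division by the median gene of a library, or its median TE family, took total amount out of the comparison. "Relative signal" is that quotient, and "level" is the relative signal per bin with the library's median gene set to 1. Reads recovered from the gene table were 19264866 to 28566810 for LAP2B and 33339884 to 37189077 for LMNB1, with a median gene of 44 to 72 and of 76 to 88 reads. Of 78202 genes 70381 were tested, and of 1241 TE families 1205.

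The LAP2B and LMNB1 profiles ranked genes almost alike. Across 28589 genes of at least 10 bins, which are not independent replicates, the Spearman correlation between a LAP2B and an LMNB1 library lay between 0.861 and 0.935 with a median of 0.905. Pairs within LAP2B gave 0.895 to 0.92 and pairs within LMNB1 gave 0.933 to 0.951. The range across antibodies thus covered the whole range within LAP2B and reached below both. LAP2B replicate 2 correlated better with each LMNB1 library (0.927 to 0.935) than with either of the other LAP2B libraries (0.92 and 0.895). Against IGG the correlations were low, between -0.059 and 0.406 for LAP2B and between -0.201 and 0.332 for LMNB1. Over 1205 TE families the values across antibodies were 0.857 to 0.953, with 0.928 to 0.953 within LAP2B and 0.923 to 0.971 within LMNB1. The plot of mean levels shows this shared order.

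**Figure D1:**
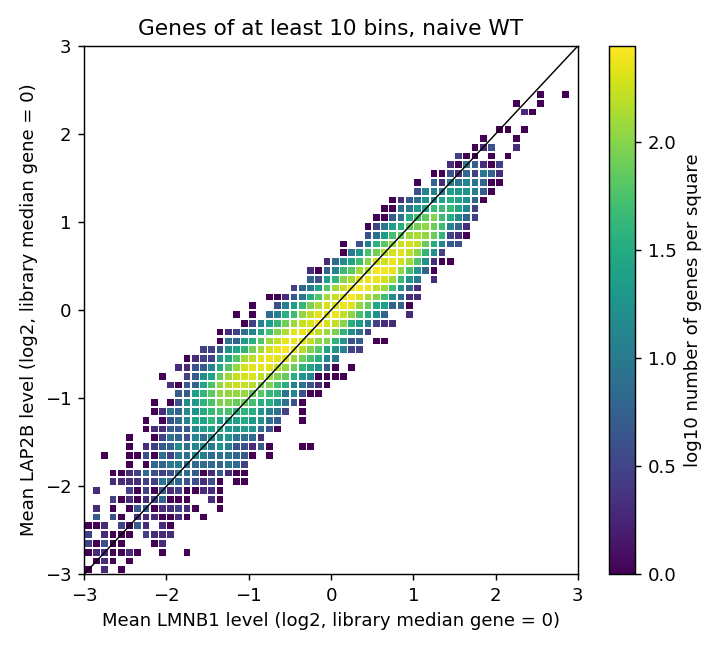
Mean LAP2B level against mean LMNB1 level of 28589 genes of at least 10 bins in naive WT cells (log2 axes, library median gene at 0), coloured by the log10 number of genes in each square, with the line of equal levels. Genes follow 1 band with a Spearman correlation of 0.953 between the means, and 28486 of them lie inside the plotted range.

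At single genes 1 difference between the antibodies passed the adjusted test, while the libraries of many more genes did not overlap. In limma with Benjamini-Hochberg adjustment over all genes, 1 gene of 70381 (0.00142%) was higher in LAP2B and 0 (0%) were lower, against 8954 with an unadjusted p under 0.05. The edgeR test on the recovered reads called 0 genes, with 9311 at an unadjusted p under 0.05. The libraries of the groups did not overlap, LAP2B being higher, for 8.19% of genes, and LAP2B being lower for 7.76%, 15.9% in either direction. With 3 against 3 libraries, groups that did not differ would separate in either direction for a share of 0.1 of genes or families. Whether the observed shares exceed this was not tested. The limits of these data are given by the intervals. The 95% interval of the log2 difference lay within a 2-fold change for 55018 genes (78.2%) and within a 1.5-fold change for 18098 (25.7%), so a 2-fold difference was outside the interval for most genes while a 1.5-fold difference was not.

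The called gene was Gm50200 (ENSMUSG00000118230), an annotated gene model without an established role, at chr18:57447943-57448212 on GRCm39. Its relative signal was 4.19, 3.45 and 4.65 in LAP2B replicates 1 to 3 and 0.842, 1.78 and 1.05 in LMNB1. It was 0.611, 0.43 and 0.417 in IGG, below every lamina library. The 3 LAP2B libraries lay above the 3 LMNB1 libraries, with a log2 difference of 1.72 (SE 0.24, 95% interval 1.23 to 2.20, limma adjusted p = 0.0141). The gene touches 2 bins, and these values rest on 302, 152 and 242 reads in LAP2B and 64, 157 and 81 in LMNB1. In WT EpiLCs its relative signal was 2.05, 1.11 and 1.57 with LAP2B and 1.52, 0.866 and 1.06 with LMNB1, so the groups overlapped there. The call was lost with any of LAP2B replicate 1, LAP2B replicate 3 or LMNB1 replicate 3 left out, and leaving out LAP2B replicate 2 or LMNB1 replicate 2 gave 479 and 423 called genes.

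Signal varied with base composition in both profiles, and the median difference between them varied with it. Genes were ranked by the GC content of their body into 10 equal classes. In the most AT-rich class, up to 38.5% GC, the median level was 1.23, 1.49 and 1.204 in LAP2B, 1.95, 1.42 and 1.70 in LMNB1 and 0.845, 0.724 and 0.789 in IGG. Both lamina proteins were thus above the genome's median gene and IGG was below it. In the most GC-rich class, above 53.1% GC, the levels were 0.947, 0.851 and 0.997 in LAP2B, 0.664, 0.929 and 0.833 in LMNB1 and 1.36, 1.36 and 1.28 in IGG. The median log2 difference between LAP2B and LMNB1 went from -0.35 in class 1, the most AT-rich, to 0.18 in class 9 and 0.14 in class 10, against -0.02 over all genes. Genes without overlap followed it. In class 1, 1379 of 7032 genes (19.6%) were lower in all LAP2B than in all LMNB1 libraries and 42 (0.597%) higher, against 288 (4.1%) and 803 (11.4%) in class 10.

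**Figure D2:**
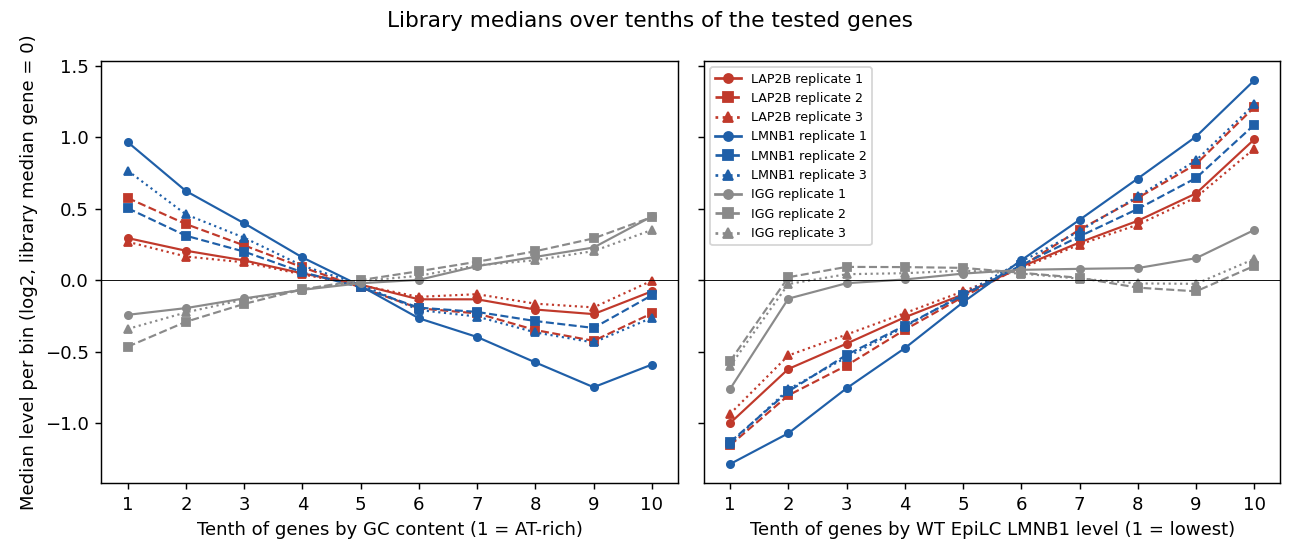
Median level per bin (log2, library median gene at 0) of each naive WT library over 10 equal classes of genes ranked by GC content (left) and by WT EpiLC LMNB1 level (right), with LAP2B in red, LMNB1 in blue and IGG in grey, and line and marker styles for replicates 1, 2 and 3. In the most AT-rich class LMNB1 replicates 1 and 3 stand above all LAP2B libraries, LMNB1 replicate 2 lies between LAP2B replicates, and IGG runs the other way.

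These windows from the middle of 4 gene bodies show AT-rich and more GC-rich sequence. Their genes lie at the ends of lists or among the largest differences described later. The 4 genes were chosen by hand and follow the GC trend, which other named genes do not. Gm50200, with 33.0% GC, had a log2 difference of 1.72. Foxf1 and Hoxd10, with 54.9% and 48.5% GC, had differences of -0.29 and -0.73. The gene bodies of Pcdh11x and Klri2 had 34.6% and 36.1% GC, within class 1, and those of Camta1 and Alox8 had 49.2% and 47.3%, within classes 8 and 7 and below their windows. Each is 150 bases of intron read 5′ to 3′ on the gene's strand from GRCm39, with G and C in capitals. Pcdh11x, a protocadherin of the X chromosome and the lowest difference among very long genes, is shown at chrX:119510062-119510211 (31.3% GC). Klri2, a killer cell lectin-like receptor and the lowest of the Klr genes, is shown at chr6:129711656-129711805 (26.7% GC). Camta1, a calmodulin-binding transcription activator and the highest of the very long genes, is shown at chr4:151545081-151545230 (54% GC). Alox8, a lipoxygenase, is shown at chr11:69081616-69081765 (51.3% GC).
Pcdh11x: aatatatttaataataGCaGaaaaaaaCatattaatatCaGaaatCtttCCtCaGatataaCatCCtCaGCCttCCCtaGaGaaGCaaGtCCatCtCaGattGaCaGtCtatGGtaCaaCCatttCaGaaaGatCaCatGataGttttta
Klri2: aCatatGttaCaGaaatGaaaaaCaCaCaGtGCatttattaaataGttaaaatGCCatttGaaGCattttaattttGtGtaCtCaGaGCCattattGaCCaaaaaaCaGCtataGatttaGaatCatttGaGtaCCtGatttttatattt
Camta1: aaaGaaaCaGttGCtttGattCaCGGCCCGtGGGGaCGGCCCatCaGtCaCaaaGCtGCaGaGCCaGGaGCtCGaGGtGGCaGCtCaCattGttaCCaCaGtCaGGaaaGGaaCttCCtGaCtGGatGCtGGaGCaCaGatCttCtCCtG
Alox8: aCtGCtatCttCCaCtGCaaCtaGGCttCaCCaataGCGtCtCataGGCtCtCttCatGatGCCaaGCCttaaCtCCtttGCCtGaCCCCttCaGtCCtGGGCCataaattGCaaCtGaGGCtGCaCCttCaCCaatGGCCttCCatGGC

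Pcdh11x had relative signals of 84.9, 113 and 84.5 in LAP2B and 165, 106 and 134 in LMNB1, overlapping through LMNB1 replicate 2. Klri2 had 5.81, 5.39 and 3.23 against 8.49, 5.17 and 7.91. Camta1 had 93.9, 83.5 and 99.3 in LAP2B against 59.5, 70.8 and 67.9 in LMNB1, without overlap, and IGG was higher than both at 129, 167 and 159. The log2 differences were -0.51 (95% interval -0.85 to -0.17), -0.58 (-1.01 to -0.16) and 0.48 (0.20 to 0.77). None passed the limma test, with adjusted p = 0.248, 0.268 and 0.217, but Pcdh11x passed it at 0.046 with LMNB1 replicate 2 left out.

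Per library, the contrast between classes was smaller on average with LAP2B, but libraries of the antibodies overlapped. The GC contrast, the log2 ratio of the mean level in the most AT-rich to that in the most GC-rich of 4 equal classes of genes, was 0.13, 0.41 and 0.09 in LAP2B and 0.87, 0.27 and 0.59 in LMNB1. It was -0.61, -0.74 and -0.59 in IGG, with the sign reversed. The means were 0.21 ± 0.17 and 0.58 ± 0.30 (SD, n = 3 each), and the two-sided exact permutation test gave p = 0.2, adjusted p = 0.25 over 5 measures. The smallest p that 3 against 3 libraries allow is 0.1, so no measure here could pass 0.05. In WT EpiLCs, whose libraries are separate, the GC contrast was -0.12, -0.30 and -0.53 with LAP2B and 0.15, 0.44 and 0.04 with LMNB1, without overlap.

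The lamina contrast ranked genes by LMNB1 in WT EpiLCs, which shares no library with the naive comparison, and took the log2 ratio of the top to the bottom of 4 equal classes. It was 1.48, 1.78 and 1.36 in LAP2B, 2.09, 1.70 and 1.78 in LMNB1 and 0.68, 0.33 and 0.40 in IGG. Both proteins thus separated lamina-rich from lamina-poor genes by more than IGG did. The means of 1.54 ± 0.22 and 1.86 ± 0.20 (SD, n = 3) differed by -0.32 (exact permutation p = 0.2). Without LMNB1 replicate 1, which had the largest contrasts, this difference was -0.21, that of the GC contrast -0.22 in place of -0.37 and that of the spread over genes -0.22 in place of -0.45. With the classes ranked by EpiLC LAP2B instead, the difference was -0.05, so its size depended on which antibody ranked the genes. The spread over genes, the log2 ratio of the 90th to the 10th percentile of the level, was 1.60, 2.09 and 1.48 in LAP2B and 2.63, 1.87 and 2.03 in LMNB1 (exact permutation p = 0.3). The Spearman correlation with the mean naive IGG profile was 0.222, 0.0867 and 0.25 in LAP2B and -0.0515, 0.147 and 0.0673 in LMNB1 (exact permutation p = 0.2). On each of these 4 measures LAP2B replicate 2 lay past LMNB1 replicate 2 on the side of the other LMNB1 libraries. The spread over TE families was 0.76, 0.81 and 0.75 in LAP2B and 0.81, 0.81 and 0.77 in LMNB1 (exact permutation p = 0.2).

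**Figure D3:**
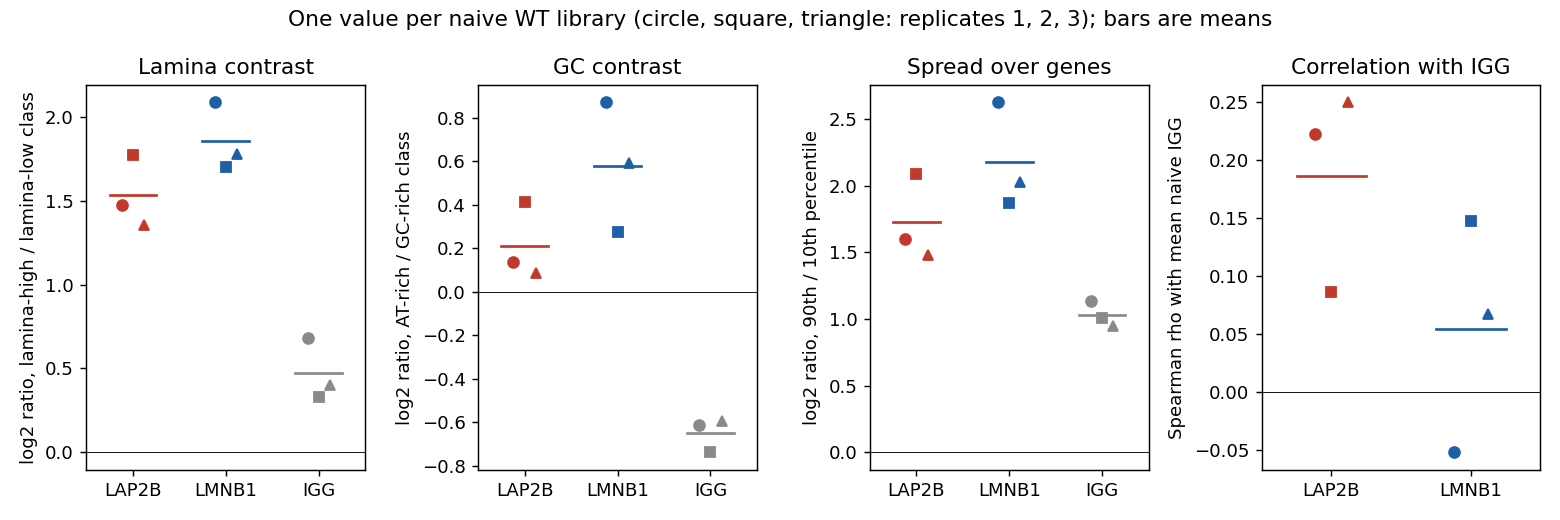
Lamina contrast, GC contrast, spread over genes (log2 ratios) and Spearman correlation with mean naive IGG, 1 point per naive WT library with the mean as a bar. In all panels LAP2B replicate 2 and LMNB1 replicate 2 overlap the other group, and the IGG libraries stand apart from both in the first 3 panels.

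Sensory receptor families, which lie in AT-rich clusters, had high levels with both antibodies and negative median differences, meaning lower in LAP2B. Class II olfactory receptors, odorant receptors in many clusters, had median levels of 1.33, 1.64 and 1.27 in LAP2B, 2.20, 1.54 and 1.92 in LMNB1 and 0.885, 0.756 and 0.821 in IGG. The median log2 difference of the 981 tested genes was -0.38, against -0.02 over all genes. Of them 217 were lower in LAP2B without overlap (22.1%, background 7.76%) and 15 higher, but 0 passed the adjusted test. Their median GC content was 36.7%, within the most AT-rich class of genes, where 19.6% of genes were lower without overlap and the median difference was -0.35. Vmn2r, the vomeronasal type 2 pheromone receptors, gave a median of -0.41 with 32 of 113 lower without overlap and 0 higher, and 111 of 113 differences were negative. Vmn1r, the type 1 receptors, gave -0.37 with 39 lower and 0 higher of 148 tested, from a list of 230. Class I olfactory receptors gave -0.33 with 22 of 131 (16.8%) lower and 0 higher. Klr receptors of natural killer cells and Tas2r bitter taste receptors gave -0.36 and -0.28, with 3 of 27 (11.1%) and 4 of 34 (11.8%) lower without overlap. These 3 lists had a median GC content of 38.1%, 36.5% and 38.5%, within or at the edge of the most AT-rich class. Their shares lay below its 19.6%. Those of Vmn2r (28.3%, median GC 36.4%) and Vmn1r (26.4%, median GC 38.1%) lay above it. Ig V segments, the variable gene segments of antibodies, had the highest LAP2B level of the 27 lists in each replicate, at 2.27, 2.77 and 2.24, against 3.21, 2.41 and 2.75 in LMNB1. Their median difference was -0.20, and 51 of 332 were lower and 4 higher without overlap.

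**Figure D4:**
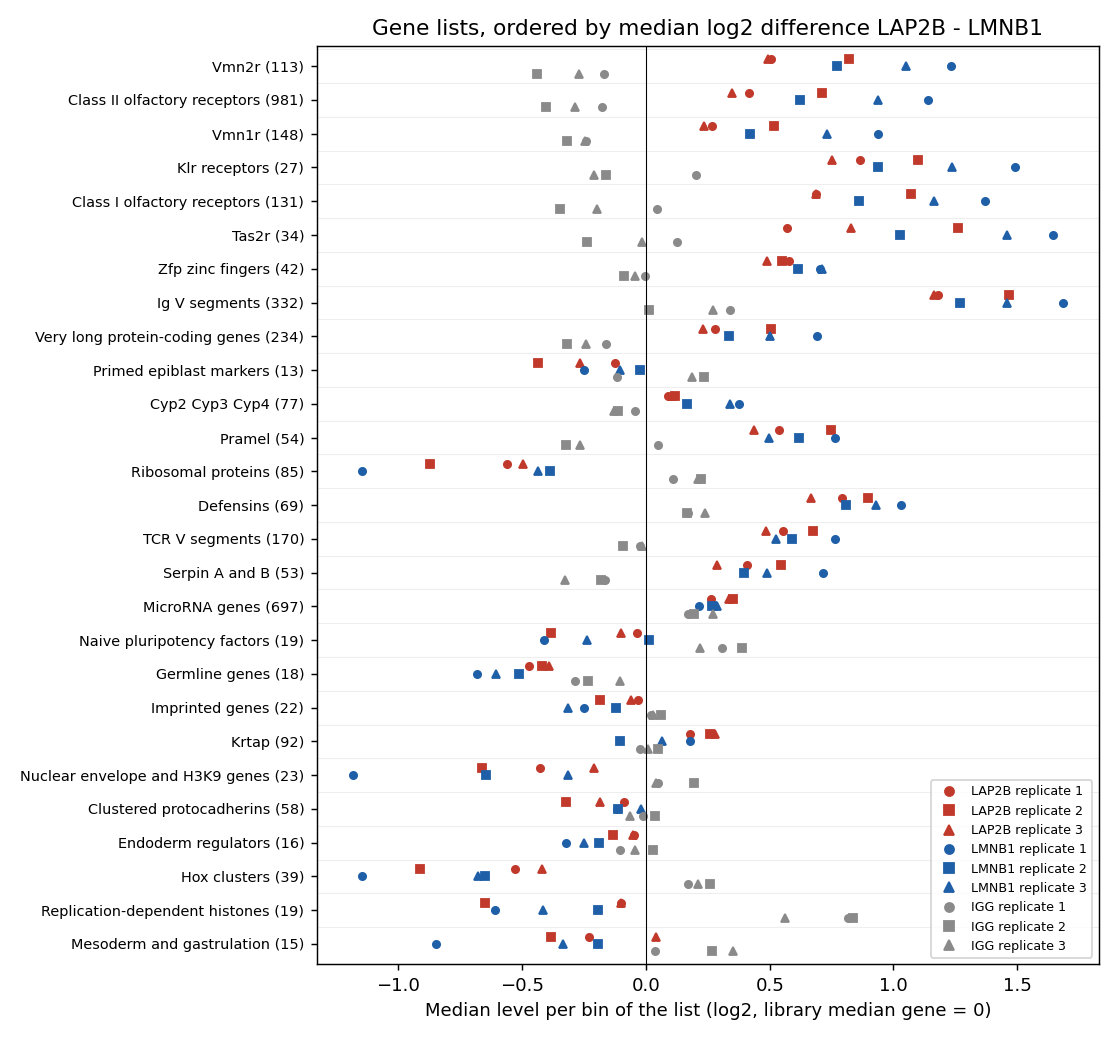
Median level per bin (log2, library median gene at 0) of 27 gene lists in each naive WT library, LAP2B in red, LMNB1 in blue and IGG in grey with a marker for each replicate, ordered from the lowest median log2 difference at the top and with the number of tested members beside each name. Receptor lists sit right of 0 in LAP2B and LMNB1 and mostly left of it in IGG, and Hox, ribosomal protein and nuclear envelope lists lie left of 0 in all 6 lamina libraries.

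Within those families the extreme members show the size and noise of single differences. Or7e169, the lowest of the class II receptors (chr9:19756452-19761043), had 0.861, 0.909 and 0.923 in LAP2B and 2.93, 1.69 and 2.61 in LMNB1, without overlap, a log2 difference of -1.30 (95% interval -1.80 to -0.79). Or2at4, the highest, had 0.875, 0.864 and 1.58 against 0.263, 0.432 and 0.364, a difference of 1.38 (0.73 to 2.03). Both missed the limma threshold with all libraries, at adjusted p = 0.214. Or7e169 and Or2at4 passed it at 0.038 and 0.041 without LAP2B replicate 2, and at 0.026 and 0.045 without LMNB1 replicate 2. Vmn2r84 had 8.46, 8.95 and 6.44 against 15.5, 10.6 and 12.8, all LAP2B libraries below all LMNB1 libraries. The lowest members of the other families were Or52s1 (-1.17), Vmn1r169 (-1.04), Igkv1-133 (-1.02) and Tas2r103 (-1.13), and the highest were Tas2r119 (0.74), Ighv3-4 (0.54), Vmn1r212 (0.41), Or55b3 (0.36), Klrb1c (0.10) and Vmn2r114 (0.07). Of the lowest members named here, Or52s1, Igkv1-133 and Tas2r103 touch 2 bins each.

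With LMNB1 replicate 2 left out, 72 class II olfactory receptors (7.34%) and 16 Vmn2r genes (14.2%) were lower in LAP2B at a limma adjusted p under 0.05, against a background of 0.513% of genes lower and 0.0881% higher. With LAP2B replicate 2 left out instead, 73 (7.44%) and 13 (11.5%) were lower, against 0.507% of genes lower and 0.173% higher. In each case 1 class II receptor was higher. Vmn1r had 6 and then 7 genes lower, class I olfactory receptors 3 and then 8, and the remaining lists at most 2 called genes, among them Sycp3, a synaptonemal complex gene that was lower in both cases. All 6 libraries were left out in turn, and these are the only ones whose removal raised the number of called genes. On the GC contrast each was the library of its group nearest the other antibody. Leaving out LMNB1 replicate 2 moved the GC contrast difference from -0.37 to -0.52, and leaving out LAP2B replicate 2 moved it to -0.47. The counts are thus no separate support for a difference, and the share called within the AT-rich class was not computed.

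The other lists varied in sign, and their counts without overlap stand against 8.19% of all genes higher and 7.76% lower. Hox genes, the clustered body-axis regulators, had levels of 0.693, 0.532 and 0.747 in LAP2B and 0.452, 0.638 and 0.625 in LMNB1, with IGG at 1.13, 1.196 and 1.16, and a median difference of 0.14. Mesoderm and gastrulation genes gave 0.21, with 3 of 15 higher without overlap and 0 lower. Replication-dependent histone genes gave 0.16 over 19 tested genes of 67 in the list. Untested members of a list were among the lowest 0.1 of genes by mean. Primed epiblast markers had a median of -0.19, with 9 of 13 differences negative, 1 gene higher without overlap and 0 lower. Zfp zinc fingers, DNA-binding proteins that include repressors of TEs, gave -0.23. Of the 69 in this list 42 were tested, with 10 (23.8%) lower without overlap and 1 higher. Germline genes gave 0.03 with 4 of 18 (22.2%) lower and 2 higher. Ribosomal protein genes, which encode the subunits of the ribosome, had levels of 0.678, 0.547 and 0.71 in LAP2B and 0.452, 0.765 and 0.74 in LMNB1, and their median of -0.09 became 0.01 when libraries were divided by their mean. That scaling moved the median over all genes by 0.10, and the medians of T cell receptor V segments, serpins and defensins, -0.06, -0.06 and -0.08, also changed sign under it. The 234 protein-coding genes of at least 500 bins gave a median of -0.20, with 187 negative differences, and 16 (6.84%) were higher without overlap, near the share over all genes, and 0 lower. MicroRNA genes had no lean, with a median of 0.00 and 53 higher and 51 lower without overlap of 697 tested, from 1206. Hoxc8 and Hoxd10, the extremes of the Hox list, had differences of 0.75 and -0.73, and Evx1 and Foxf1, those of the mesoderm list, 0.67 and -0.29.

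No protein-coding gene of at least 10 bins passed the test, so the largest differences without overlap are given as values, named after the data were seen. Higher in LAP2B were Spata31f1d (1.32), Crat, a carnitine acetyltransferase (1.13), Mex3a, an RNA-binding protein (1.08), Usp17le (1.07), Josd1, a deubiquitinase (1.03), Higd1c (0.99), Alox8 (0.98), Mafk, a small Maf transcription factor (0.98), Sppl2b, an intramembrane protease (0.98), and Btnl1 (0.96). Crat had relative signals of 2.64, 1.68 and 2.69 in LAP2B, 0.447, 1.33 and 1.56 in LMNB1 and 2.92, 4.43 and 4.6 in IGG. In 9 of these 10 genes the mean IGG signal was above the mean LMNB1 signal, against 45.8% of all tested genes, and genes taken for low LMNB1 favour that order. The exception was Usp17le, with 1.21, 1.64 and 1.04 in LAP2B, 0.434, 0.83 and 0.468 in LMNB1 and 0.333, 0.319 and 0.597 in IGG. The part of background in these values was not tested. Lower in LAP2B were Pramel3b (-1.23), the olfactory receptors Or4k6 (-1.02), Or7e168 (-0.98) and Or1b1 (-0.89), Fahd1 (-1.01), Polr3k, a subunit of RNA polymerase III (-0.98), Dipk2a (-0.91), Emc2, a subunit of the endoplasmic reticulum membrane complex (-0.91), Prl8a2, a placental prolactin (-0.90), and Svip (-0.88). Dipk2a had 4.85, 4.36 and 3.33 in LAP2B and 8.84, 7.33 and 7.4 in LMNB1, the LMNB1 libraries all above the LAP2B ones. Of the 10 lower genes only Fahd1 had a mean IGG signal above its mean LMNB1 signal. Fahd1 and Higd1c lay below the median gene in every LAP2B and LMNB1 library, so their differences rest on few reads. Fahd1 had 0.361, 0.0909 and 0.192 in LAP2B and 0.421, 0.557 and 0.519 in LMNB1. Bins were counted on a later gene annotation than the study's, so a gene whose extent changed may pass the 10-bin rule wrongly. Mean levels of Emc2, Fahd1 and Higd1c were only 0.060, 0.069 and 0.15 in LAP2B and 0.12, 0.16 and 0.060 in LMNB1. Whether their extents changed was not tested. With all libraries, the limma adjusted p-values of all genes named in this paragraph ran from 0.214 to 0.28. Or4k6 and Or7e168 passed without LAP2B replicate 2 (0.038 for both) or LMNB1 replicate 2 (0.029 and 0.034). Or1b1 passed without LAP2B replicate 2 (0.047).

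The genes for the profiled proteins and their partners were not called with all libraries, and their 95% intervals are given. Tmpo, which encodes LAP2B (chr10:90983375-91017177), had 9.9, 11.7 and 8.98 in LAP2B and 13.1, 12.1 and 12.3 in LMNB1, without overlap, a log2 difference of -0.30 (95% interval -0.60 to -0.01). Lmnb1 had 13.2, 12.2 and 11.8 against 13.5, 13.7 and 13.7, also without overlap, a difference of -0.14 (-0.42 to 0.13). Lbr, the lamin B receptor, had 4.58, 4.3 and 5.67 against 4.42, 5.16 and 4.83, a difference of 0.01 (-0.34 to 0.35) whose sign changed without LAP2B replicate 3 (-0.11) or LMNB1 replicate 1 (-0.05). Lmna and Lmnb2, the genes of the A-type lamins and lamin B2, had 0.67 (0.17 to 1.17) and 0.55 (0.04 to 1.05), each with overlapping libraries. With LAP2B replicate 2 left out Lmna was called higher in LAP2B, with a difference of 0.99 and limma adjusted p = 0.0393. With LMNB1 replicate 2 left out it was not called. This is 1 of 23 genes of the list (4.35%, against 0.173% of all genes), and a share resting on 1 gene does not describe the list. Suv39h2, an H3K9 methyltransferase, was the lowest of the 23 genes of this list at -0.40 (-0.75 to -0.05). Syne1 and Syne2, which encode nesprins of the nuclear envelope, had -0.14 and 0.08. Of the 23 genes Syne2 (4.35%, background 8.19%) was higher without overlap, Tmpo, Lmnb1 and Suv39h2 (13.04%, background 7.76%) were lower, and 0 were called with all libraries.

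Naive pluripotency genes gave a median of 0.00 over 19 genes, with 0 higher and 1 lower (5.26%) without overlap, near the 7.76% of all genes. Nanog, a core factor of pluripotency, had 3.96, 4.77 and 4.23 in LAP2B and 4.33, 4.68 and 3.91 in LMNB1, a difference of 0.00 (95% interval -0.34 to 0.35) whose sign changed without LAP2B replicate 2 (-0.07) or LMNB1 replicate 3 (-0.06). Sox2, another core factor, had 0.167, 0.136 and 0.346 against 0.368, 0.455 and 0.519, the lowest of the list at -0.84 (-1.54 to -0.14) and without overlap. All Sox2 values lay below the median gene, which held 44 to 72 reads in LAP2B, so this difference rests on few reads. Tcl1, a co-activator of Akt, was the highest of the list at 0.45 (-0.05 to 0.95). Zfp42, Klf5 and Esrrb, further naive factors, had -0.34, -0.34 and 0.12. Dnmt3b, the de novo DNA methyltransferase of the primed epiblast, had 5.35, 4.75 and 5.37 against 3.71, 4.02 and 3.19, a difference of 0.49 (0.15 to 0.84) without overlap, and Sox3 of the same list had -0.84. Other extremes were Sycp3 of the meiotic synaptonemal complex (-0.75) and Tex19.1 (0.45) among germline genes, Snrpn (-0.51) and H19 (0.39) among imprinted genes, Cyp2c67 (-0.48) and Cyp2d34 (0.89) among cytochromes, and Serpinb3c (-0.58) and Serpina1a (0.54) among serpins. With all libraries limma called none of these genes. Sycp3 passed the limma test without LAP2B replicate 2 (adjusted p = 0.045) or LMNB1 replicate 2 (0.035), and Snrpn without LMNB1 replicate 2 (0.045).

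TE families differed by small amounts, given relative to the median family. Limma called 0 of 1205 families (0%), against 282 at an unadjusted p under 0.05, with 15.7% higher and 12.7% lower in LAP2B without overlap, 28.4% in either direction. The 95% interval lay within a 1.5-fold change for 1198 families (99.4%), so for most families a 1.5-fold difference was outside the interval. When libraries were divided by their mean over families instead, the median difference moved by -0.22 and limma called 567 families lower and 2 higher, so a positive sign given here for a LINE-1, SINE or retrovirus family may not hold on that scale. Of the families named here, 2 satellites had the largest differences. GSAT_MM, the major satellite of pericentromeric heterochromatin (51 annotated copies), had relative signals of 760, 634 and 1006 in LAP2B, 415, 574 and 548 in LMNB1 and 1523, 1417 and 1825 in IGG. It was named after its values were seen. SYNREP_MM, a satellite with 26 copies, had 152, 156 and 202 in LAP2B, 96.0, 115 and 115 in LMNB1 and 288, 186 and 275 in IGG. All LAP2B libraries lay above all LMNB1 libraries at both, and the IGG libraries lay above all lamina libraries at GSAT_MM. The log2 differences were 0.63 (95% interval 0.03 to 1.24) and 0.64 (0.24 to 1.04), with limma adjusted p = 0.2 and 0.157. With the median over copies in place of the mean they were -0.04 and -0.02, of the other sign. With libraries divided by their mean they were 0.39 for both, with limma adjusted p = 0.012 for GSAT_MM and 0.023 for SYNREP_MM, and these are the 2 families called higher on that scale. MMSAT4, a dispersed satellite with 624 copies, had 1.15, 1.17 and 1.11 in LAP2B and 1.35, 1.22 and 1.31 in LMNB1, all LAP2B libraries lower, with a difference of -0.16.

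**Figure D5:**
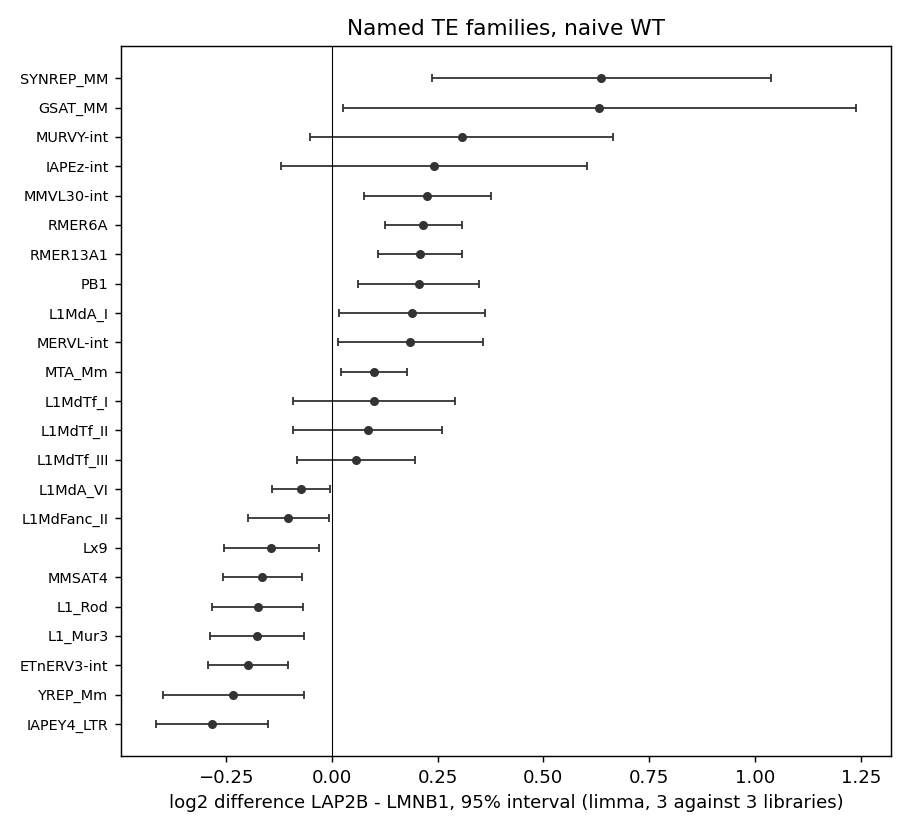
Log2 difference between LAP2B and LMNB1 in naive WT cells with its 95% interval (limma, 3 against 3 libraries) for the TE families named in the text. SYNREP_MM and GSAT_MM have the largest differences, 0.64 and 0.63, and IAPEY4_LTR the lowest at -0.28.

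LINE-1 elements, the retrotransposons that fill lamina-associated domains, had high signal in their young families with both antibodies and with IGG. L1MdA_I had means of 3.84 in LAP2B, 3.36 in LMNB1 and 3.81 in IGG. These values are not divided by copy length, and the part of length or background in them was not tested. L1MdTf_I, a young and full-length family, had 3.98, 3.72 and 4.23 in LAP2B, 3.59, 4.12 and 3.41 in LMNB1 and 3.79, 3.45 and 3.57 in IGG, so the antibodies and the background overlapped. The differences of L1MdTf_I, L1MdTf_II and L1MdTf_III were 0.10, 0.08 and 0.06, and that of L1MdA_I was 0.19, all of which turned negative with libraries divided by their mean. The L1MdTf differences were 0.044, 0.030 and 0.0093 without LMNB1 replicate 3 and 0.18, 0.16 and 0.11 without LMNB1 replicate 2. The intermediate Lx families had a median of -0.06 with 20 of 21 negative, and the ancient L1M families -0.04 with 19 of 60 lower and 0 higher without overlap, against 12.7% lower and 15.7% higher over all families. L1_Mur3 had 1.16, 1.23 and 1.15 against 1.42, 1.26 and 1.36 and L1_Rod 1.05, 1.12 and 1.05 against 1.29, 1.15 and 1.24, with differences of -0.18 and -0.17. Lx9, L1MdFanc_II and L1MdA_VI had -0.14, -0.10 and -0.07.

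Among endogenous retroviruses the IAP group had a median of 0.12 with 23 of 25 families positive, from IAPEY4_LTR at -0.28 to IAPEz-int at 0.24. Over all 1205 families 680 were positive. In the IAP group 3 families were higher and 1 lower without overlap, against 15.7% and 12.7% of all families. The MaLR group had a median of 0.04, with 17 of 29 higher and 1 lower without overlap. Its median was -0.18 with libraries divided by their mean. IAPEz-int had 2.05, 1.7 and 2.28 in LAP2B and 1.45, 2.11 and 1.53 in LMNB1, overlapping through LMNB1 replicate 2, and 2.63, 2.74 and 2.83 in IGG. MERVL-int, the internal part of a retrovirus of the cleavage stage, had 0.19, MMVL30-int 0.23, RMER6A 0.22, RMER13A1 0.21, MTA_Mm 0.10 and ETnERV3-int -0.20. With the median over copies in place of the mean, RMER6A had 0.027, RMER13A1 0.12, MERVL-int 0.14 and MTA_Mm 0.07. SINEs, short elements of gene-rich chromatin, had low signal in these values, which are not divided by copy length. All 15 B1, 5 B2 and 7 B4 and ID families had positive differences against the median family. Without overlap, 1 B1, 0 B2 and 1 of the B4 and ID families were higher. The largest difference was that of PB1 at 0.21, which was 0.087 with the median over copies and -0.02 with libraries divided by their mean. On the Y chromosome MURVY-int had 0.31 and the repeat YREP_Mm -0.23. GSAT_MM alone made up 30.1% to 39.6% of the sum of family means in LAP2B and 22.9% to 28.5% in LMNB1. With LMNB1 replicate 2 left out, 117 families (9.71%) were higher and 84 (6.97%) lower in LAP2B at a limma adjusted p under 0.05. With any other single library left out, LAP2B replicate 2 included, 0 families were called.

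Of 21 chromosomes, the libraries did not overlap at chromosomes 9 (lower in LAP2B) and 15 (higher), and no exact permutation p, adjusted over chromosomes, was below 0.42. Chromosome 8 had median levels of 1.36, 1.31 and 1.38 in LAP2B, 1.28, 1.34 and 1.34 in LMNB1 and 1.48, 1.497 and 1.49 in IGG, high in all 9 libraries. Chromosome 6 had 1.2, 1.28 and 1.21 against 1.33, 1.26 and 1.31, with IGG at 1.13, 1.098 and 1.11. The X chromosome had 0.641, 0.732 and 0.633 against 0.794, 0.671 and 0.711, with IGG at 0.483, 0.464 and 0.47. The Y chromosome had 0.367, 0.387 and 0.408 against 0.439, 0.396 and 0.375. Per the study these cells are XY, so X and Y have fewer copies than the autosomes. How much of each level reflects copy number in the culture and how much contact with the envelope cannot be told apart.

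At single genes and TE families the difference between the antibodies was not shown to depend on stage. Per the study, both proteins contacted nearly the same domains in naive cells. In WT EpiLCs the LAP2B signal lay both in and outside lamina-associated domains, and the study did not rely on it there. The limma interaction over the 12 WT naive and EpiLC libraries called 0 of 70381 genes (0%) and 0 of 1205 families (0%), with 2764 genes and 61 families at an unadjusted p under 0.05. In EpiLCs the list medians were -0.55 for class II olfactory receptors, -0.57 for Vmn2r, -0.49 for Vmn1r and 0.32 for Hox genes, against -0.04 over all genes, each from 6 libraries that the naive values do not share. Of the 27 lists 22 had medians of the same sign in both stages. The other 5 were ribosomal proteins (-0.09 naive and 0.28 in EpiLCs), Krtap keratin-associated proteins (0.06 and -0.12), germline genes (0.03 and -0.12), clustered protocadherins (0.07 and -0.04) and imprinted genes (0.06 and -0.01).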

How the data were processed

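CUT&RUN reads were aligned by the authors to the mm39 mouse genome with Bowtie2 2.3.5.1, sorted with SAMtools 1.10 and binned with deepTools, per the labels and the study's methods. Per those methods, duplicates, mitochondrial reads, unassembled contigs and alignments not primary or not properly paired were removed. Blacklisted regions were excluded for genes and included for TEs. The deposited values are signal: RPKM in 1 kb bins, scaled to yeast spike-in and summed by the authors over the bins a gene touches, or given per TE copy. The study's methods state 10 kb bins for TEs, but the value of 1 read in the TE tables was 0.891 to 0.937 of that in the gene tables, so the TE bin width is not settled. The spike-in constant is stated for LAP2 and not for LMNB1, so values were divided by the median gene or TE family of the library, and total amounts were not compared. Values step in whole reads (100% within 0.1 of a whole number), from which reads were recovered for edgeR. Reads of overlapping genes and of near-identical copies are shared, so such genes are uncertain. Base composition and mappability may act on the signal, which was not tested.

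The 3 LAP2B and 3 LMNB1 naive WT libraries were compared with limma 3.58.1 (R 4.3.3, eBayes with trend, two-sided) on log2(relative signal + 0.1), where low values understate a fold, with Benjamini-Hochberg adjustment and calls under 0.05. The lowest 0.1 of genes by mean, and families under 10 copies, were left out. The analysis code was checked on simulated data whose noise was set and not estimated from these libraries. That check gives no power or error rate for them. Per-library measures used the exact permutation test (scipy 1.17.1). GC content came from GRCm39. Gene bodies and bin counts came from a later GENCODE release than the one named in the study's methods, so levels of genes whose extent changed are uncertain. Alternatives changed the pseudocount, scaling, filters, replicate block, libraries and test (edgeR 4.0.16 on recovered reads).

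Named genes were to be called protein-coding genes of at least 10 bins without overlap, plus the highest and lowest of each list and envelope and pluripotency genes. No gene met the first part, so the 10 largest without overlap in each direction were taken after the values were seen, from 3141, and likewise for TE families. Members and lists were chosen with earlier results of these data known.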

Additional observations from a re-analysis of the deposited data

How the results depend on the processing

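The count of called genes was 1 and became 0 with libraries divided by their mean, with no filter on low values, with genes of at least 10 bins only, with eBayes without trend and in edgeR on recovered reads. Leaving out 1 library gave 0 to 479 called genes, 479 without LAP2B replicate 2 and 423 without LMNB1 replicate 2, and the cause was not tested. The count of called TE families was 0, and became 569 with libraries divided by their mean, where the median difference itself moves, and 3 with the EpiLC libraries added to the fit. Leaving out 1 library gave 0 to 201 called families, 201 without LMNB1 replicate 2. Leaving out LMNB1 replicate 1 moved the difference in the correlation with IGG from 0.13 to 0.0789, and values not divided by bins moved it to 0.0594 (exact permutation p = 0.3). The difference in spread over TE families, -0.0273, ranged from -0.0461 without LAP2B replicate 2 to -0.0142 without LAP2B replicate 3, was -0.0418 without LMNB1 replicate 3 was -0.0117 as the distance from the 75th to the 25th percentile and was 0.000662 with families of at least 100 copies, of the other sign. Replicate numbers did not pair the samples (same-number correlation of gene deviations -0.121, -0.229 and 0.075), and with the replicate block 1 gene, 0 families and, for the stage difference, 0 and 0 were called.

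Signs turned for single members as follows. With libraries divided by their mean, the log2 difference was -0.14 for L1MdTf_I, -0.15 for L1MdTf_II, -0.18 for L1MdTf_III, -0.0501 for L1MdA_I, -0.017 for PB1, -0.0490 for MERVL-int, -0.13 for MTA_Mm, -0.015 for RMER6A and -0.025 for RMER13A1. With the median over copies it was -0.0215 for SYNREP_MM and -0.0399 for GSAT_MM. With 1 library left out it ranged from -0.0427 to 0.20 for Esrrb, from -0.0682 to 0.0650 for Nanog from -0.11 to 0.0873 for Lbr and from -0.18 to 0.30 for Vmn2r114. Of the other values of named members under the alternatives, 1260 kept direction and side of the threshold, 52 passed it and 7 lost it. A median gene held 44 to 88 reads, which limits short genes most.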
